A study of Mus musculus with 9 samples.

Results

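Astrocytes and the Bergmann glia of the cerebellum share a set of marker genes, and 10 of these were followed here across normal cerebellum and tumours of a WNT-medulloblastoma mouse model. The genes were chosen by name, as Gfap, Aqp4, Slc1a2, Slc1a3, Aldh1l1, Aldoc, S100b, Fabp7, Gja1 and Gjb6, out of 24444 gene symbols in the count table, and all 10 passed the filter on low counts. They comprise the intermediate filament of the astrocyte (Gfap), its water channel (Aqp4), its glutamate transporters (Slc1a2, Slc1a3) and its gap junction proteins (Gja1, Gjb6). The remaining members are a folate enzyme (Aldh1l1), a glycolytic enzyme (Aldoc), a calcium-binding protein (S100b) and a fatty acid binding protein (Fabp7).

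Astrocytes clear glutamate and potassium from around synapses, hold water channels at the vessel wall, and are coupled to each other through connexin channels. Bergmann glia are the specialised astrocytes of the cerebellar cortex: their cell bodies lie among the Purkinje cells, their fibres run to the surface of the cerebellum, and they carry high levels of the transporter GLAST, the product of Slc1a3. Gfap is also known for its increase in astrocytes that react to injury or to a tumour.

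RNA was sequenced in 9 libraries, 3 per group. MycT58A tumours and EV tumours (EV is read here as empty vector) grew from implanted cells in the brains of CD1-nude mice, a strain without a thymus. These cells came from mice with the alleles Blbp-Cre, Ctnnb1Ex3flx/flx and Trp53flx/flx and with Pik3caE545K in the state +/flx, and they carried either MycT58A, a form of MYC that is degraded more slowly, or EV. Control libraries were normal cerebellum of CD1-nude mice, without the alleles or vectors. Both tumour groups share all alleles other than the vector, the host strain and the dissection of GFP-positive regions, and host cells may remain in the dissected pieces. Blbp is another name for Fabp7, so the Cre of the tumour cells is driven by the promoter of a member gene. The labels give no ages, call the libraries biological replicates and leave unsaid whether each tumour had its own cell preparation, so p-values measure the spread between these samples.

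Total counts per library ranged from 16631523 to 30410089. Values are CPM, counts scaled to the size of the library, with TMM factors that adjust each library for its composition. Myc itself stood at 918, 859 and 727 CPM in MycT58A tumours, against 360.0, 19.9 and 762 CPM in EV tumours and 0.94, 1.59 and 32.0 CPM in control. The library labelled EV replicate 3 thus lay inside the MycT58A range, and values without it are given where they bear on a call. A protocol field speaks of cortex for the controls, while their source name is normal cerebellum, which was used here. In control 10 granule neuron genes summed to 6358, 6433 and 4541 CPM, against 18.7 to 104 CPM in the 6 tumour libraries. A contrast with tumours alone cannot tell cerebellum from cortex.

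The start regions of 4 members are shown here because the results turn on them: Gfap, which kept a high level in most tumours, the transporter pair Slc1a3 and Slc1a2, which diverged in the tumours, and Fabp7, whose promoter drives the Cre. Sequences are from RefSeq (GRCm38.p6), run from 250 bases before to 50 bases after a RefSeq start of each gene, and read along the gene's own strand. The regions are chr11:102897151-102897450 on the minus strand for Gfap, chr15:8710758-8711057 on the minus strand for Slc1a3, chr2:102706188-102706487 on the plus strand for Slc1a2 and chr10:57784673-57784972 on the plus strand for Fabp7. The Slc1a2 region lies well inside the gene, which begins at chr2:102658659 in the GENCODE vM21 annotation, and that first start was not searched. The Gfap region also lies inside its gene, which in that annotation begins at chr11:102900912 on the minus strand. Capitals mark a match to TTCNNNGAA, the form bound by STAT factors, in Gfap and Slc1a3, and a match to CTTTGAT or its reverse complement, the form bound by the TCF/LEF factors of WNT signalling, in Slc1a2.
Gfap: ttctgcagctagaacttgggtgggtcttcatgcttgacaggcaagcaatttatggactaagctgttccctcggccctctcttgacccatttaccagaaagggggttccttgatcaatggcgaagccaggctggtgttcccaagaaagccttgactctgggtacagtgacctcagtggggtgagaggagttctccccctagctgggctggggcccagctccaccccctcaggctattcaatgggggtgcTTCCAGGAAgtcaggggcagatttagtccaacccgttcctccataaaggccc
Slc1a3: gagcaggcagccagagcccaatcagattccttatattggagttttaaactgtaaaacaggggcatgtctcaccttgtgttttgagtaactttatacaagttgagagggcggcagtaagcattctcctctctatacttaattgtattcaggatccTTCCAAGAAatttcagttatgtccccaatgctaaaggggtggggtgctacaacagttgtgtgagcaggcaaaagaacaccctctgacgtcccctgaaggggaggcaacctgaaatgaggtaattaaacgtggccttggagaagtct
Slc1a2: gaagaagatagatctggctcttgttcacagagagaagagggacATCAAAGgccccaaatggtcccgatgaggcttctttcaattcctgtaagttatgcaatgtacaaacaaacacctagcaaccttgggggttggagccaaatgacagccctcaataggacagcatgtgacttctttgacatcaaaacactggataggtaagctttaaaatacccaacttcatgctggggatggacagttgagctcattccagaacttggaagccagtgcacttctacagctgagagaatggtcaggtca
Fabp7: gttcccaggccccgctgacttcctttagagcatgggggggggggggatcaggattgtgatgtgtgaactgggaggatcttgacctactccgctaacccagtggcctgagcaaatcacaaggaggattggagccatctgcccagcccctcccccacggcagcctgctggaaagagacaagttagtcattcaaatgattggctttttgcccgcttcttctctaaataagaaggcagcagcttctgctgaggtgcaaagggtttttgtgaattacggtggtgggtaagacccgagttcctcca
RefSeq start regions were at hand for 9 of the 10 members, with 2 for Aldoc, which made 10 regions. The Aldh1l1 region (chr6:90550543-90550842), like that of Slc1a2, lay well inside its gene, which begins at chr6:90486427. Searched on both strands, TTCNNNGAA was in 3 of the 10 regions (Aldoc, Gfap and Slc1a3), against 8.3% of 32851 mouse start regions of the same length. CTTTGAT was in Slc1a2 alone, against 3.73% of all regions, and GTGGGAA, the form bound by RBPJ, was in both Aldoc regions, against 6.38%. CACGTG, the E-box bound by MYC, was in 0 of the 10, against 7.15%. The SOX form AACAATG was also in 0 of the 10, against 3.78%, as was the palindromic motif of NFI factors, against 0.0365%. These matches describe the letters only.

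Against control, MycT58A tumours had significantly less RNA of 9 of the 10 genes and EV tumours of 8 of the 10, by edgeR's quasi-likelihood test with Benjamini-Hochberg adjustment over 15171 genes at a threshold of 0.05. No member was significantly higher in either tumour group than in control. The background was high: 62.2% of all genes tested were called in MycT58A tumours (31.2% higher, 31.0% lower) and 57.0% in EV tumours (30.7% higher, 26.3% lower). The CPM of tumours and control did not overlap for 9 members in MycT58A tumours and 8 in EV tumours, all lower than control, against 41.5% and 32.2% of all genes tested that lay wholly lower. The median log2 fold change of the members was -4.46 in MycT58A tumours and -3.58 in EV tumours, against -0.02 and 0.14 over all genes tested. Both comparisons share the control libraries. In bulk tissue, fewer cells of a type and less RNA per cell cannot be told apart.

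**Figure D1:**
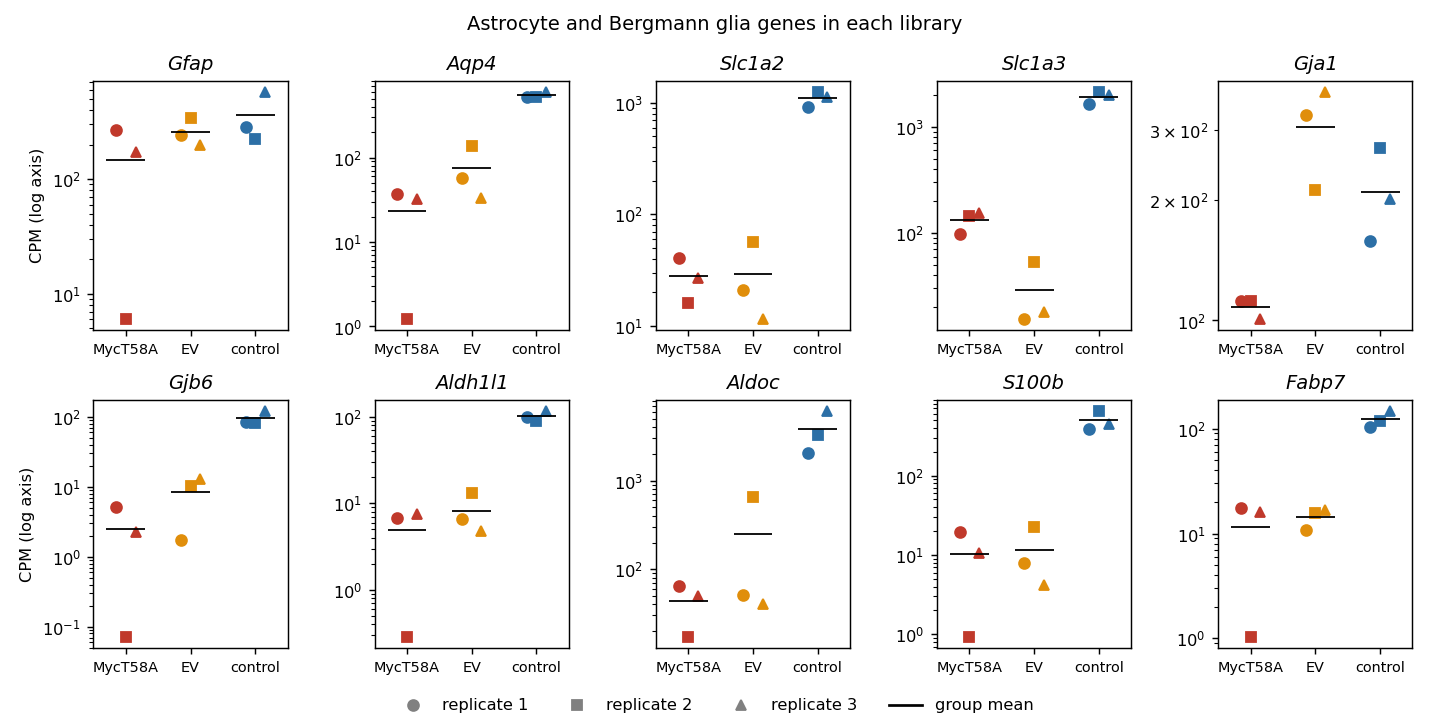
CPM of each member in each library on a log axis, with 1 point per library, in MycT58A tumours, EV tumours and control. For Slc1a2, Slc1a3, Aldoc and S100b every tumour point lies below every control point, whereas the groups overlap for Gfap, and Gja1 in EV tumours spans 213 to 373 CPM.

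Gfap (chr11:102887336-102900912, minus strand, GENCODE vM21 on mm10) encodes the intermediate filament that names the astrocyte marker GFAP. It stood at 267, 6.07 and 171 CPM in MycT58A tumours, at 242, 339 and 197 CPM in EV tumours and at 285, 224 and 571 CPM in control. Of the 6 tumour libraries 5 lay between 171 and 339 CPM, close to the lower controls, and MycT58A replicate 2 stood far below the rest. Neither tumour group differed significantly from control in edgeR's test: the log2 fold change was -1.28 ± 0.97 (SE, adjusted p = 0.275) in MycT58A tumours and -0.47 ± 0.96 (adjusted p = 0.69) in EV tumours. The MycT58A value was -2.02 without MycT58A replicate 1 and -0.71 without replicate 2. Without control replicate 3 the EV value was 0.06, so its sign rests on that library.

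Aqp4, the water channel of the astrocyte endfoot, stood at 36.6, 1.24 and 32.7 CPM in MycT58A tumours, at 57.7, 135 and 32.8 CPM in EV tumours and at 516, 522 and 592 CPM in control. All tumour libraries lay below all controls. In edgeR's test the log2 fold change was -4.53 ± 1.07 (SE) in MycT58A tumours, 23.1-fold lower (adjusted p = 0.0059), and -2.85 ± 0.99 in EV tumours, 7.21-fold lower (adjusted p = 0.0359). The EV call was close to the threshold. It was lost without any 1 of the 3 controls (adjusted p = 0.0656, 0.0664 and 0.072), without EV replicate 1 (0.0975) or 3 (0.09) and without MycT58A replicate 3 (0.0517), and without EV replicate 2 it was 12-fold lower. Gfap and Aqp4 thus parted: per kilobase of exon the ratio of Gfap to Aqp4 was 10.8, 7.22 and 7.74 in MycT58A tumours and 6.19, 3.7 and 8.9 in EV tumours, against 0.816, 0.634 and 1.43 in control.

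Other genes of the water channel and its anchoring complex did not share one direction. Of the 10 genes on that list, Aqp4 included, 2 were higher and 5 lower in MycT58A tumours than in control, and 2 were higher and 4 lower in EV tumours. Over all genes tested, 31.2% were higher and 31.0% lower in MycT58A tumours, and 30.7% and 26.3% in EV tumours, so these counts are not far from the shares of all genes. The MycT58A total of 7 was 4 without control replicate 1 or 3 or without any 1 MycT58A library. Dtna, which encodes alpha-dystrobrevin, stood at 4.86, 3.87 and 4.9 CPM in MycT58A tumours and at 1.64, 55.3 and 3.12 CPM in EV tumours, against 253, 262 and 271 CPM in control. It was 57.6-fold lower in MycT58A tumours (edgeR adjusted p = 0.00397) and 13.1-fold lower in EV tumours (adjusted p = 0.0228), with a log2 fold change of -6.8 in EV tumours without EV replicate 2. The EV call was lost when only EV tumours and control were fitted (0.0579), and DESeq2 gave no adjusted p for this gene. Agrn, which encodes the matrix protein agrin, was higher in both groups, by 4.13-fold in MycT58A tumours (adjusted p = 9.73e-05) and 4.78-fold in EV tumours (adjusted p = 7.82e-05). Aqp1, the water channel of the choroid plexus, stood at 2.91, 3.44 and 4.52 CPM in MycT58A tumours and at 431, 254 and 17.9 CPM in EV tumours, against 0.163, 1.06 and 0.14 CPM in control. The 8 genes of ependymal and choroid plexus cells, Aqp1 included, summed to 7.7, 5.39 and 260 CPM in MycT58A tumours, 437, 328 and 22.8 CPM in EV tumours and 49.4, 31.3 and 36.0 CPM in control, and their part in the Aqp1 values was not tested.

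The glutamate transporters fell in both tumour types, and they did so by different amounts. Slc1a2 (chr2:102658659-102790784, plus strand), which encodes GLT-1, stood at 40.8, 16.1 and 26.8 CPM in MycT58A tumours, at 20.8, 55.9 and 11.6 CPM in EV tumours and at 926, 1243 and 1121 CPM in control. The tumour groups overlapped each other widely and both lay far under control. Slc1a2 was 39.4-fold lower in MycT58A tumours (log2 fold change -5.3 ± 0.66, SE, edgeR adjusted p = 0.000232) and 37.3-fold lower in EV tumours (-5.22 ± 0.65, adjusted p = 0.000294). Without EV replicate 2 the EV difference was 67.2-fold.

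Slc1a3 (chr15:8634124-8710764, minus strand), which encodes GLAST, stood at 98.4, 145 and 155 CPM in MycT58A tumours, at 15.6, 53.2 and 18.1 CPM in EV tumours and at 1635, 2119 and 1986 CPM in control. The 3 groups did not overlap, with EV tumours lowest and MycT58A tumours in between. Slc1a3 was 14.4-fold lower than control in MycT58A tumours (log2 fold change -3.85 ± 0.5, SE, edgeR adjusted p = 0.000299) and 66.0-fold lower in EV tumours (-6.05 ± 0.56, adjusted p = 7.73e-05), or 113-fold without EV replicate 2.

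Between the tumour types, 2 of the 10 members were called by edgeR's test, against 8.3% of all genes tested. Slc1a3 was higher in MycT58A tumours, by 4.58-fold (log2 fold change 2.19 ± 0.47, SE, adjusted p = 0.0313), and Gja1 was lower, against 3.28% of all genes called higher and 5.02% called lower. Both were also the only members whose tumour groups did not overlap, against 18.2% of all genes wholly higher and 13.6% wholly lower in MycT58A tumours. The Slc1a3 call held in 9 of 16 alternative settings, with adjusted p between 0.000246 and 0.116. It held without the library labelled EV replicate 3 (3.89-fold, adjusted p = 0.0273) and without EV replicate 2, where it was 7.89-fold. The call was lost when only the 2 tumour groups were fitted (adjusted p = 0.108), without any 1 control (0.059, 0.0618 and 0.0593) and without any 1 MycT58A library (0.0857, 0.102 and 0.116). Slc1a2 gave a difference of -0.08 ± 0.55 on the log2 scale between the tumour types (adjusted p = 0.933), which leaves room for a moderate difference in either direction. Per kilobase of exon, the ratio of Slc1a3 to Slc1a2 was 3.71, 13.8 and 8.88 in MycT58A tumours and 1.16, 1.47 and 2.39 in EV tumours, against 2.72, 2.62 and 2.72 in control.

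Of the 7 genes of the Slc1 family, the astrocyte transporters and the neuronal glutamate transporters Slc1a1 and Slc1a6 were lower in both tumour groups. The neutral amino acid transporter Slc1a5 was higher in both, Slc1a4 passed the test in MycT58A tumours and not in EV tumours, and Slc1a7 in EV tumours and not in MycT58A tumours. Slc1a6, the Purkinje cell transporter, stood at 0.827, 0.532 and 1.28 CPM in MycT58A tumours and at 0.445, 3.53 and 1.02 CPM in EV tumours, against 263, 282 and 573 CPM in control. It was 424-fold lower in MycT58A tumours (edgeR adjusted p = 0.000102) and 224-fold lower in EV tumours (adjusted p = 0.000166), with a log2 fold change of -9.04 in EV tumours without EV replicate 2. Slc1a1, which encodes the neuronal transporter EAAC1, was 25.1-fold lower in MycT58A tumours (adjusted p = 6.52e-05) and 43.7-fold lower in EV tumours (adjusted p = 4.9e-05). Slc1a5, the glutamine transporter ASCT2, stood at 303, 344 and 232 CPM in MycT58A tumours and at 142, 91.7 and 194 CPM in EV tumours, against 1.14, 1.95 and 3.13 CPM in control. It was 141-fold higher in MycT58A tumours (adjusted p = 2.53e-05) and 68.7-fold higher in EV tumours (adjusted p = 3.92e-05), and every MycT58A library lay above every EV library, a difference that was not called (2.06-fold, adjusted p = 0.108). Slc1a4, the transporter ASCT1, was 2.68-fold higher in MycT58A tumours (adjusted p = 0.00403) and gave a log2 fold change of 0.45 in EV tumours (adjusted p = 0.237). Slc1a7, a further glutamate transporter, stood at 47.8 CPM in EV replicate 2 and at or under 1.6 CPM in every other library. It was called higher in EV tumours (adjusted p = 0.019), a call lost without EV replicate 2 (0.151), without any 1 control (0.0655, 0.0634 and 0.064) and in limma-voom (0.127).

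**Figure D2:**
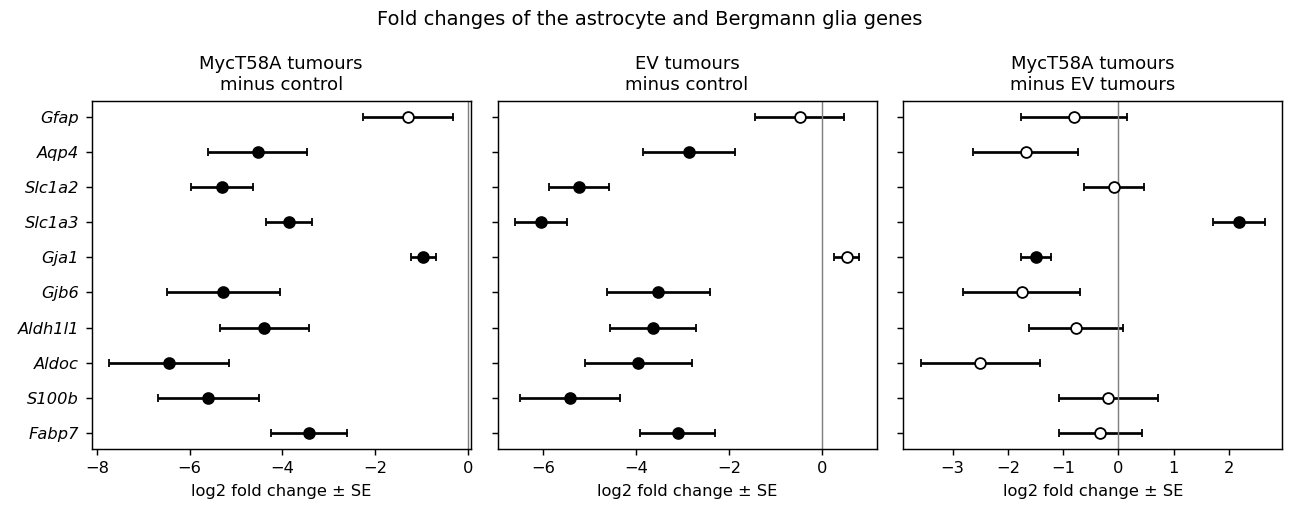
Log2 fold changes of the 10 members with bars of 1 SE, for MycT58A tumours against control, EV tumours against control and MycT58A against EV tumours, each panel with its own scale; filled points passed the threshold and open points did not. The values run down to -6.45 for Aldoc in MycT58A tumours against control and -6.05 for Slc1a3 in EV tumours against control, and between the tumour types Slc1a3 (2.19) and Gja1 (-1.49) were called.

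The gap junction genes also split. Gja1 (chr10:56377330-56402513, plus strand), which encodes connexin 43, stood at 112, 112 and 101 CPM in MycT58A tumours, at 328, 213 and 373 CPM in EV tumours and at 158, 270.3 and 202 CPM in control. MycT58A tumours lay below all other libraries and varied little, while EV tumours overlapped control. Against control Gja1 was 1.94-fold lower in MycT58A tumours (log2 fold change -0.96 ± 0.27, SE, edgeR adjusted p = 0.0129), a call lost without control replicate 2 (0.0658) or MycT58A replicate 3 (0.0518). In EV tumours the value was 0.54 ± 0.27 (adjusted p = 0.114), and without EV replicate 2 it was called, 1.67-fold higher (adjusted p = 0.0179). Between the tumour types Gja1 was 2.81-fold lower in MycT58A tumours (-1.49 ± 0.27, adjusted p = 0.0208). That call held in 11 of 16 alternatives, among them without the library labelled EV replicate 3 (2.51-fold, adjusted p = 0.0133), and was lost when only the tumour groups were fitted (0.0716), without control replicate 3 (0.0507) and without any 1 MycT58A library (0.0918, 0.0855 and 0.103).

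Gjb6 (chr14:57123303-57133611, minus strand), which encodes connexin 30, stood at 5.14, 0.071 and 2.26 CPM in MycT58A tumours, at 1.71, 10.4 and 13.1 CPM in EV tumours and at 85.0, 81.9 and 122 CPM in control. All tumour libraries lay below all controls, and the value in MycT58A replicate 2 rests on 2 counts. It was 38.6-fold lower in MycT58A tumours (log2 fold change -5.27 ± 1.21, SE, edgeR adjusted p = 0.00512; 82.7-fold without MycT58A replicate 1) and 11.5-fold lower in EV tumours (-3.52 ± 1.11, adjusted p = 0.0244). The EV call was lost without control replicate 3 (0.0629) or EV replicate 1 (0.0518). Per kilobase of exon, Gja1 over Gjb6 was 5.67, 411 and 11.7 in MycT58A tumours and 49.9, 5.31 and 7.42 in EV tumours, against 0.485, 0.861 and 0.432 in control, so the ratio was higher in every tumour library than in any control. Per kilobase of the longest transcript the same ratio was 1.01, 1.79 and 0.897 in control, so whether it crosses 1 depends on the length used.

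Of 10 connexin genes, 1 was higher and 9 lower in MycT58A tumours than in control, and 1 was higher and 4 lower in EV tumours. The shares of all genes tested were 31.2% higher and 31.0% lower in MycT58A tumours, and 30.7% and 26.3% in EV tumours. The MycT58A total of 10 dropped to 6 without control replicate 1 or MycT58A replicate 2 and to 5 without MycT58A replicate 3. Gjc1, which encodes connexin 45, was the higher gene in both, at 44.4, 37.0 and 38.2 CPM in MycT58A tumours and 28.4, 21.7 and 47.4 CPM in EV tumours, against 3.6, 4.16 and 4.48 CPM in control. It was 9.77-fold higher in MycT58A tumours (edgeR adjusted p = 8.07e-05) and 7.95-fold higher in EV tumours (adjusted p = 0.000136). The oligodendrocyte connexin genes Gjc3 and Gjb1 were lower in both groups (Gjb1 in MycT58A tumours was not called without control replicate 1 or MycT58A replicate 2 or 3, at 0.0617, 0.0583 and 0.0624), and Gjd2, of the neuronal connexin 36, fell to at most 0.54 CPM in every tumour library, against 10.8 to 11.7 CPM in control. Gja5, a connexin of arteries, was lower in MycT58A tumours than in EV tumours, at 0.144, 0.071 and 0.128 CPM against 2.19, 6.8 and 1.87 CPM (edgeR adjusted p = 0.0109; 0.0632 when only the tumour groups were fitted and 0.0599 to 0.0733 without any 1 MycT58A library). Its log2 fold change was -4.93, and -4.1 without EV replicate 2.

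Both metabolic enzymes fell. Aldh1l1 (chr6:90486427-90600203, plus strand), a folate enzyme used as a marker of astrocytes throughout the brain, stood at 6.84, 0.284 and 7.5 CPM in MycT58A tumours, at 6.68, 13.2 and 4.76 CPM in EV tumours and at 99.1, 89.5 and 118 CPM in control. All tumour libraries lay below control, and MycT58A replicate 2 (8 counts) lay well below the other tumours. Aldh1l1 was 21.0-fold lower in MycT58A tumours (log2 fold change -4.39 ± 0.96, SE, edgeR adjusted p = 0.00398) and 12.4-fold lower in EV tumours (-3.63 ± 0.92, adjusted p = 0.00968), and both calls held in all 16 alternatives. Its mitochondrial relative Aldh1l2 stood at 24.0, 77.6 and 11 CPM in MycT58A tumours and at 6.64, 12 and 5.27 CPM in EV tumours, against 5.8, 7.18 and 6.02 CPM in control. It was 5.92-fold higher in MycT58A tumours (adjusted p = 0.00971; log2 fold change 1.47 without MycT58A replicate 2) and gave 0.33 on the log2 scale in EV tumours (adjusted p = 0.676).

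Aldoc (chr11:78322968-78327781, plus strand), the brain form of aldolase, is made by astrocytes and also by Purkinje cells, where it is known as zebrin II. It stood at 64.2, 17.1 and 49.9 CPM in MycT58A tumours, at 51.4, 650.0 and 40.4 CPM in EV tumours and at 2033, 3253 and 6147 CPM in control. Within the EV group replicate 2 stood above the others by an order of magnitude, and it still lay under every control. Aldoc was 87.2-fold lower in MycT58A tumours (log2 fold change -6.45 ± 1.29, SE, edgeR adjusted p = 0.0026) and 15.4-fold lower in EV tumours (-3.95 ± 1.15, adjusted p = 0.0175), or 82.7-fold without EV replicate 2. Between the tumour types the log2 fold change was -2.5 ± 1.08 (adjusted p = 0.154), and -0.07 without EV replicate 2. All 10 Purkinje cell genes were lower in both tumour groups, against 31.0% of all genes tested in MycT58A tumours and 26.3% in EV tumours. Their sum was 126, 142 and 179 CPM in MycT58A tumours, 177, 359 and 132 CPM in EV tumours and 10950.0, 11262 and 13077 CPM in control. Their part in the Aldoc difference was not tested. The widespread form Aldoa changed less, 2.1-fold lower in MycT58A tumours (adjusted p = 0.0302; lost without any 1 control or MycT58A library, at 0.0515 to 0.0979) and 2.63-fold lower in EV tumours (adjusted p = 0.0115).

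S100b (chr10:76253853-76261159, plus strand), a calcium-binding protein of astrocytes and some oligodendrocytes, stood at 19.4, 0.923 and 10.5 CPM in MycT58A tumours, at 7.98, 22.8 and 4.2 CPM in EV tumours and at 389.7, 654 and 451 CPM in control. No tumour library came near control. S100b was 48.5-fold lower in MycT58A tumours (log2 fold change -5.6 ± 1.09, SE, edgeR adjusted p = 0.00222; 86.8-fold without MycT58A replicate 1) and 42.7-fold lower in EV tumours (-5.42 ± 1.08, adjusted p = 0.00306; 80.4-fold without EV replicate 2).

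Other S100 genes went the opposite way. S100a4, S100a6, S100a10 and S100a11 were higher in both tumour groups, and of the 8 S100 genes S100b, S100a1 and S100a16 were lower in both (S100a1 in EV tumours was not called without control replicate 2 or 3, at 0.0507 and 0.0619). Both directions were common among all genes tested, with 31.2% higher and 31.0% lower in MycT58A tumours, and 30.7% and 26.3% in EV tumours. S100a11 stood at 145, 141 and 137 CPM in MycT58A tumours and at 427, 462 and 299.9 CPM in EV tumours, against 7.56, 11.5 and 9.57 CPM in control. It was 14.8-fold higher in MycT58A tumours (edgeR adjusted p = 2.16e-05) and 41.6-fold higher in EV tumours (adjusted p = 1.22e-05). Between the tumour types 6 of the 8 S100 genes were lower in MycT58A tumours, against 5.02% of all genes tested. S100b was not among the 6 (log2 fold change -0.18 ± 0.9, edgeR adjusted p = 0.905). The count of 6 was 0 when only the tumour groups were fitted and 0 without any 1 MycT58A library.

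Fabp7 (chr10:57784881-57788450, plus strand), the brain lipid binding protein BLBP of radial glia and Bergmann glia, stood at 17.4, 1.03 and 16.1 CPM in MycT58A tumours, at 10.9, 15.6 and 16.9 CPM in EV tumours and at 104, 119 and 148 CPM in control. Apart from MycT58A replicate 2, the tumour libraries lay in a narrow band under control. Fabp7 was 10.7-fold lower in MycT58A tumours (log2 fold change -3.42 ± 0.82, SE, edgeR adjusted p = 0.00629) and 8.55-fold lower in EV tumours (-3.1 ± 0.81, adjusted p = 0.0109). Its relative Fabp5 went the other way, at 571, 454 and 454 CPM in MycT58A tumours and 726, 855 and 319 CPM in EV tumours, against 41.1, 41.1 and 46.3 CPM in control. Fabp5 was 11.5-fold higher in MycT58A tumours (adjusted p = 0.000104) and 14.8-fold higher in EV tumours (adjusted p = 8.73e-05). Fabp3 was lower in both groups, 55.0-fold in MycT58A tumours (adjusted p = 0.000106) and 33.5-fold in EV tumours (adjusted p = 0.000199). Fabp4 stood at 91.8 CPM in the library labelled EV replicate 3 and at or under 2.08 CPM elsewhere.

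**Figure D3:**
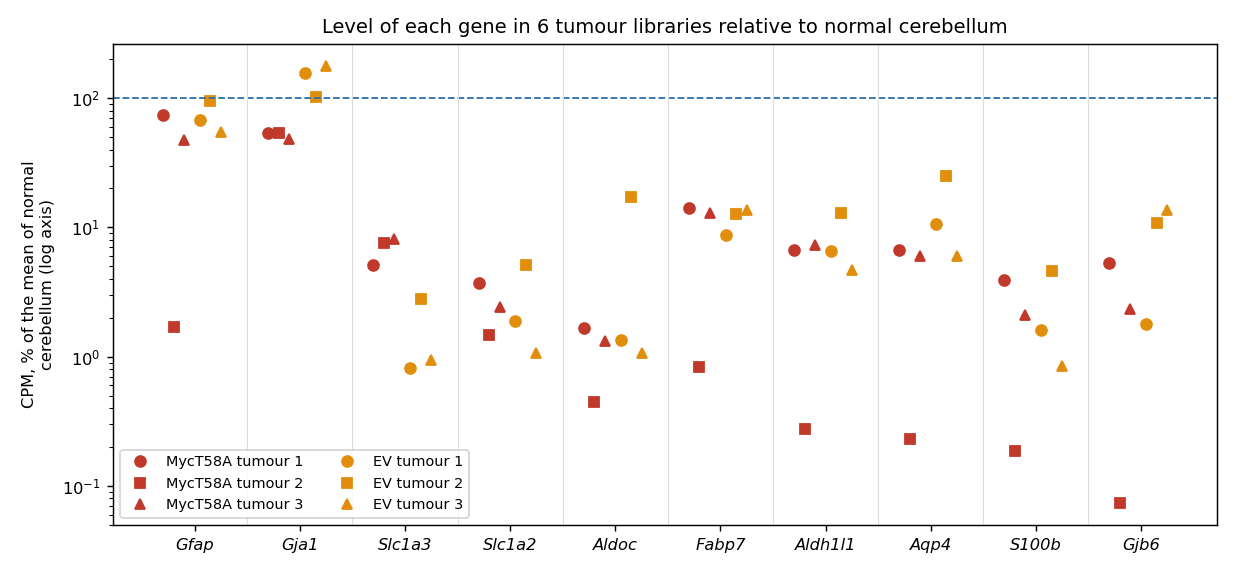
Level of each member in each of the 6 tumour libraries as a percent of its control mean, on a log axis. The median over the 10 members was 6.02%, 0.641% and 6.68% in MycT58A tumours and 4.22%, 12.8% and 5.35% in EV tumours, and Gfap and Gja1 lie above the other members in most libraries.

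Set against their control means, the members kept very unequal shares in the tumours. Gja1 kept 48.1% to 53.2% in MycT58A tumours and 101% to 177% in EV tumours. Gfap kept 74.2%, 1.69% and 47.5% in MycT58A tumours and 67.2%, 94.1% and 54.8% in EV tumours. The other 8 members kept at most 14.1% in any MycT58A library and at most 24.9% in any EV library. Summed over the 10 members, the level was 668, 299 and 572 CPM in MycT58A tumours and 742, 1508 and 712 CPM in EV tumours, against 6232, 8576 and 11457 CPM in control.

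Levels of different genes were compared per kilobase of exon. In control, Aldoc stood highest at 1168 CPM per kilobase, followed by S100b at 336 and Slc1a3 at 224, and the ranges of these 3 did not overlap with those of their neighbours in the order. Fabp7 (98.8), Aqp4 (87.1), Gfap (85.3) and Slc1a2 (83.5) followed with neighbouring ranges that overlapped. Gjb6 (36.0) came next, apart from its neighbours, and Aldh1l1 (22.6) and Gja1 (20.5) stood last and overlapped. In MycT58A tumours Gfap led at 35.1 ± 31.3 CPM per kilobase (SD, n = 3), followed by Slc1a3 at 15.5 ± 3.51, and every neighbouring pair overlapped. In EV tumours Gfap averaged 61.5 ± 17.2 CPM per kilobase (SD, n = 3) and Gja1 29.7 ± 8.05, without overlap. Aldoc had the highest mean, 75.8 ± 107, which rests on EV replicate 2 alone: it ranged from 12.4 to 199 and lay below both Gfap and Gja1 in EV replicates 1 and 3. Gja1 thus had rank 4 of 10 in MycT58A tumours and rank 3 in EV tumours, against rank 10 in control, or rank 8 by the longest transcript. Scaled by the longest transcript instead, Slc1a3 (431) stood above S100b (336) in control and Gja1 (54.0) above Gjb6 (45.7).

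**Figure D4:**
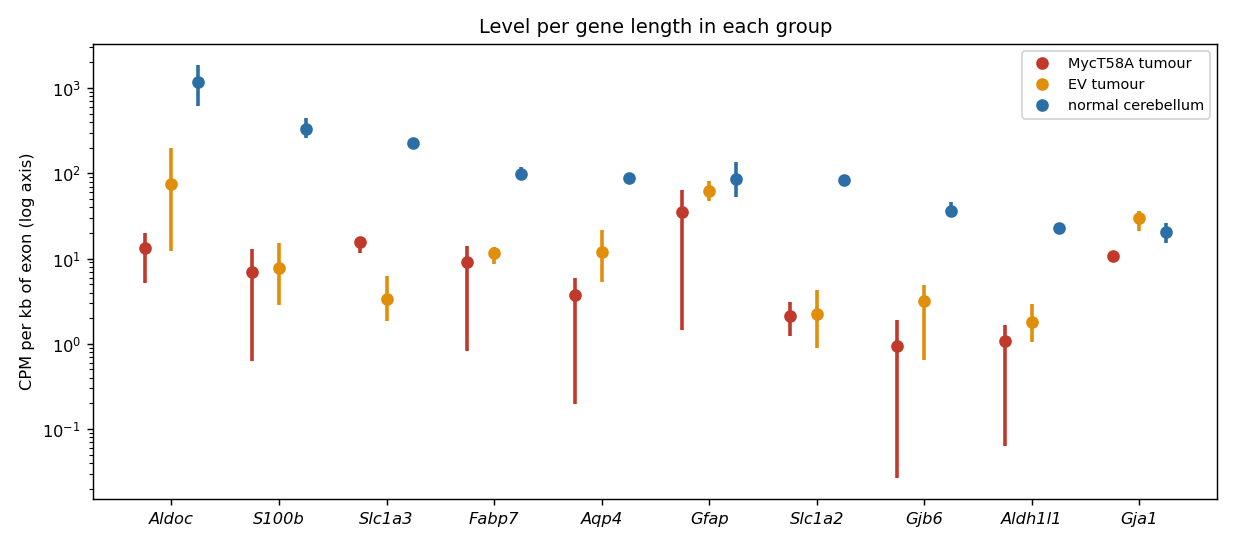
Level of each member in CPM per kilobase of exon in MycT58A tumours, EV tumours and control, on a log axis, with the mean and the range of 3 libraries. Aldoc leads in control at 1168 and Gfap leads in MycT58A tumours at 35.1.

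The 3 MycT58A tumours were not alike in these genes. In replicate 2, 8 of the 10 members had the lowest value of the group, against 42.6% of all genes tested. Gfap was there at 3.55% of the lower of the other MycT58A libraries, Aqp4 at 3.8%, Aldh1l1 at 4.15%, Fabp7 at 6.39% and S100b at 8.76%. Slc1a2 was at 60.1% and Aldoc at 34.3%, whereas Slc1a3 (147%) and Gja1 (111%) were not low. Of the 9 members with at least 5 CPM in both other libraries, 5 lay under 0.2 times the lower of them, against 36 of 10187 genes (0.353%). A description of the 36 after their values were seen found further astrocyte genes among them: Kcnj10, a potassium channel, at 0.852 CPM against 51.7 and 21.0 CPM in replicates 1 and 3, Mlc1 at 0.355 against 13.4 and 14.6 CPM, and Hepacam at 0.319 against 7.34 and 5.71 CPM. Neuronal genes were there too, with Snap25 at 3.66 CPM against 42.2 and 31.0 CPM and Pvalb at 0.532 against 8.99 and 9.12 CPM. Oligodendrocyte genes were lowest in this library as well, 58.8 CPM in sum against 699 and 91.3 CPM in replicates 1 and 3. This library had the most counts of all, 30410089. Without it the same 9 members were called lower in MycT58A tumours than in control, and Gfap had a log2 fold change of -0.71.

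The EV tumours differed in another way. Replicate 2 had the highest value of its group for 7 of the 10 members, against 40.2% of all genes tested, and Gfap (339 CPM), Aqp4 (135 CPM) and Aldoc (650.0 CPM) were among them. Genes outside the list, picked after their values were seen, were high there as well. A2m, which encodes the protease inhibitor alpha-2-macroglobulin and stands on the Bergmann glia list, reached 29855 CPM in replicate 2, against 59.9 and 16 CPM in EV replicates 1 and 3. Clu, which encodes clusterin, was there at 1576 CPM, against 31.8 and 390.0 CPM, and Serpina3n, a gene of reactive astrocytes, at 512 CPM, against 10.7 and 8.96 CPM. Endothelial genes summed to 280 CPM in this library, against 50.4 and 114 CPM in EV replicates 1 and 3, and oligodendrocyte genes to 301 CPM, against 88.7 and 79.5 CPM. The part of either in the members' values was not tested.

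The wider astrocyte list, which like the members was chosen with earlier results of these data known, behaved much as the members did. Of 29 further astrocyte genes, 25 were lower and 1 was higher in MycT58A tumours than in control, with a median log2 fold change of -4.6, and 22 were lower and 1 was higher in EV tumours, with a median of -3.82. Among all genes tested, 31.0% were lower and 31.2% higher in MycT58A tumours, and 26.3% and 30.7% in EV tumours. Cldn10, a claudin, stood at 1.26, 0.568 and 0.81 CPM in MycT58A tumours and at 0.479, 0.977 and 0.737 CPM in EV tumours, against 40.2, 38.4 and 39.1 CPM in control. It was 44.4-fold lower in MycT58A tumours (edgeR adjusted p = 3.19e-05) and 53.6-fold lower in EV tumours (adjusted p = 3.02e-05). S1pr1, a receptor for sphingosine 1-phosphate, was 12.8-fold lower in MycT58A tumours (adjusted p = 6.28e-05), and Fgfr3, a growth factor receptor, was 6.42-fold lower in EV tumours (adjusted p = 7.97e-05). The exception was Mt2, a metallothionein that responds to stress, 2.96-fold higher in MycT58A tumours (adjusted p = 0.0098) and 2.23-fold higher in EV tumours (adjusted p = 0.0375; lost in 7 of 16 alternatives). Between the tumour types, 1 gene of the list was higher in MycT58A tumours and 1 lower. Dio2, which activates thyroid hormone, stood at 30.9, 43.1 and 23.5 CPM in MycT58A tumours, against 0.479, 4.8 and 2.66 CPM in EV tumours and 54.4, 48.6 and 59.3 CPM in control (12.3-fold between tumours, adjusted p = 0.0228; 0.0948 when only the tumour groups were fitted, 0.0507 to 0.0813 without any 1 control or MycT58A library, and 21.7-fold without EV replicate 2). Htra1, a secreted protease, stood at 35.2, 32.7 and 23.4 CPM in MycT58A tumours, against 193, 576 and 345 CPM in EV tumours and 249.8, 234 and 305 CPM in control (12.2-fold lower in MycT58A than EV tumours, adjusted p = 0.00628; 0.0563 without MycT58A replicate 3).

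Of 13 genes linked to Bergmann glia, 9 were lower and 3 were higher in each tumour group than in control. For all genes tested the lower share was 31.0% in MycT58A tumours and 26.3% in EV tumours, and the higher share 31.2% and 30.7%. The AMPA receptor subunit gene Gria1 stood at 6.69, 1.21 and 11.3 CPM in MycT58A tumours and at 5.24, 17.8 and 6.63 CPM in EV tumours, against 986, 968 and 1282 CPM in control. It was 169-fold lower in MycT58A tumours (edgeR adjusted p = 0.000242; log2 fold change -8.08 without MycT58A replicate 3) and 109-fold lower in EV tumours (adjusted p = 0.000394; -7.5 without EV replicate 2). Hopx, a homeodomain protein of Bergmann glia, was 50.7-fold lower in EV tumours (edgeR adjusted p = 0.000335). It was called lower in MycT58A tumours too, with a mean of 9.79 CPM against 3.11 CPM in EV tumours and 156.5 CPM in control. The 3 higher genes were Etv5, Tnc and Wif1 in both groups. Wif1, a secreted WNT inhibitor that WNT signalling itself induces, stood at 2036, 2629 and 1610 CPM in MycT58A tumours and at 1792, 3080 and 1316 CPM in EV tumours, against 6.42, 11.2 and 12.9 CPM in control. It was 205-fold higher in MycT58A tumours (adjusted p = 2.28e-05) and 203-fold higher in EV tumours (adjusted p = 2.2e-05).

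Of 13 genes of reactive astrocytes, 3 were higher and 0 lower in MycT58A tumours than in control, against 31.2% of all genes higher and 31.0% lower. In EV tumours 8 were higher and 0 lower, against 30.7% and 26.3% of all genes, and the count of 8 was 4, a share near that of all genes, without EV replicate 2, without any 1 control and in limma-voom. Vim, the filament vimentin that reactive astrocytes share with many dividing cells, stood at 1555, 1705 and 1687 CPM in MycT58A tumours and at 2802, 1758 and 1601 CPM in EV tumours, against 304, 337 and 442 CPM in control. It was 4.56-fold higher in MycT58A tumours (edgeR adjusted p = 0.000255) and 5.69-fold higher in EV tumours (adjusted p = 0.000175). Cd44, a receptor for hyaluronan, was 12.9-fold higher in MycT58A tumours (adjusted p = 3.04e-05) and 6.48-fold higher in EV tumours (adjusted p = 9.24e-05). Gfap, the best-known gene of this state, was not called in either group.

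Of 12 factors that promote or mark the glial fate, few were called in the fit of all 9 libraries. In MycT58A tumours 1 was higher and 3 lower than in control, against 31.2% and 31.0% of all genes. In EV tumours 2 were higher and 3 lower, against 30.7% and 26.3% of all genes. Those totals ranged from 2 (without MycT58A replicate 2) to 7 (without EV replicate 3) for MycT58A tumours, and from 4 to 8 (without EV replicate 3) for EV tumours, among the runs that left out 1 library. When only MycT58A tumours and control were fitted, 10 of the 12 were called, against 11883 of 14758 genes tested in that fit. The low MycT58A count thus depends on the fit, and calls over all genes rose as well, from 9438 of 15171. Id4, an inhibitor of differentiation, was 17.7-fold lower in MycT58A tumours (edgeR adjusted p = 0.000543) and 12.8-fold lower in EV tumours (adjusted p = 0.0011). Rbpj, the DNA-binding partner of Notch, was 2.28-fold higher in MycT58A tumours (adjusted p = 0.000401) and 1.91-fold higher in EV tumours (adjusted p = 0.0016). Sox9 stood at 18.3, 8.48 and 16 CPM in MycT58A tumours and at 39.5, 71.7 and 9.07 CPM in EV tumours, against 58.1, 67.5 and 71.1 CPM in control. It was 4.6-fold lower in MycT58A tumours (adjusted p = 0.0148; 0.0555 without MycT58A replicate 2).

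**Figure D5:**
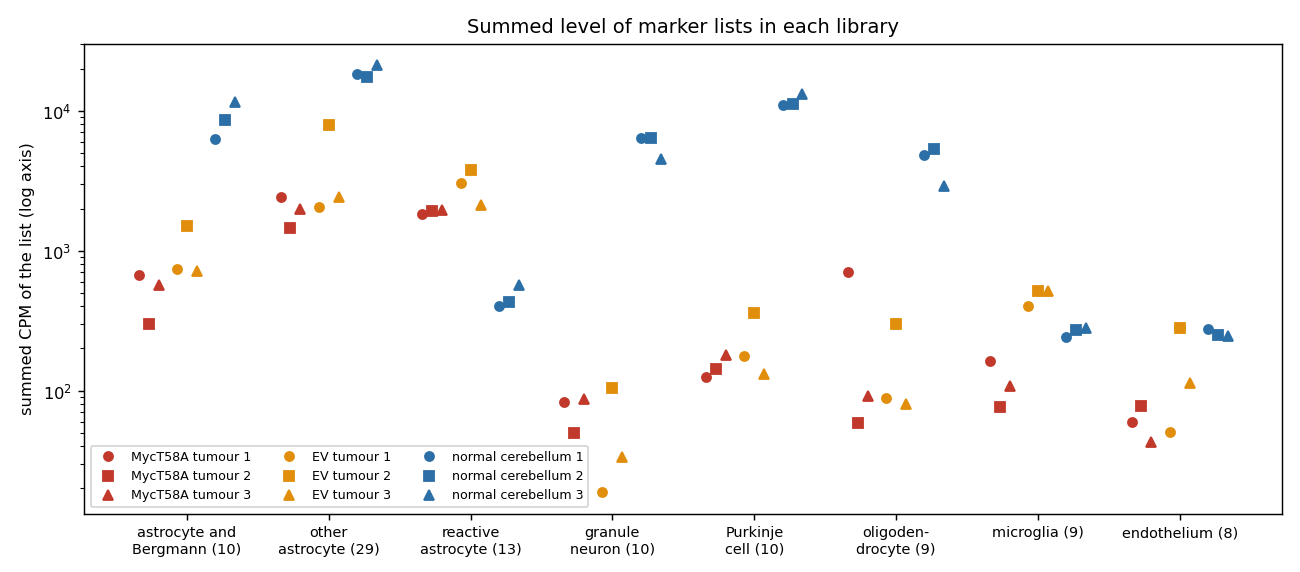
Summed CPM of the members and of other marker lists in each library, on a log axis. The members' sum lies between 299 and 1508 in the 6 tumour libraries and between 6232 and 11457 in control, and the sums of the granule and Purkinje neuron lists lie further below control.

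Genes of cerebellar neurons and oligodendrocytes were also lower in the tumours. In both tumour groups 9 of 10 granule neuron genes and 10 of 10 Purkinje neuron genes were lower than in control, with median log2 fold changes between -6.87 and -7.79. Of 9 oligodendrocyte genes, 8 were lower in MycT58A tumours (4 without MycT58A replicate 3) and 9 in EV tumours. The shares of all genes tested were 31.2% higher and 31.0% lower in MycT58A tumours, and 30.7% and 26.3% in EV tumours. None of the granule or Purkinje neuron genes was without counts in any library. Of 9 microglia genes, 1 was higher and 4 were lower in MycT58A tumours (3 in all without MycT58A replicate 3), with a median log2 fold change of -1.16. In EV tumours 3 of the microglia genes were higher, near the share of all genes, and 0 lower, with a median of 0.42. All MycT58A libraries lay below and all EV libraries above control in their summed level, with sums of 162, 75.8 and 108 CPM in MycT58A tumours, 405, 512 and 511 CPM in EV tumours and 242, 271 and 279 CPM in control. Tmem119 alone held 338 CPM in EV replicate 3, against 36.8 and 35.7 CPM in EV replicates 1 and 2 and 12.5 to 12.8 CPM in control. The place of EV replicate 3 above control thus rests on 1 gene. The part of these cell types in the members' values was not tested.

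Some genes outside the list followed the members' mean course closely. The measure was the root mean square distance between log2 CPM profiles, each centred on its own mean, over 11822 genes with a mean of at least 5 CPM. Over the 9 libraries the nearest genes were Lcat, at 0.29, Fxyd1 and Paqr8, at 0.38, and Slc22a4 and Igsf11, at 0.39. The members themselves lay 0.5 (Aldh1l1) to 2.11 (Gja1) from their own mean. Lcat, a lipid enzyme that astrocytes secrete, stood at 10.9, 0.958 and 9.25 CPM in MycT58A tumours and at 7.81, 15.6 and 10.3 CPM in EV tumours, against 135, 98.9 and 123 CPM in control. Over the 6 tumour libraries alone, the nearest were Pkib (0.18), Ttyh1 (0.22), Tmod1 (0.25), Lcat (0.26) and Ddo (0.29). The mean of at least 5 CPM was taken over all 9 libraries, and Pkib, Tmod1 and Ddo reached it through control (means of 62.2, 24.0 and 31.6 CPM). In the tumours they stood at 0.0355 to 1.95, 0.071 to 1.36 and 0.106 to 1.78 CPM, so their distances there rest on very low values. Slc22a4 and Igsf11, near the members over the 9 libraries, also reached that mean through control (means of 28.4 and 15.6 CPM). Each stood at 0.106 to 2.59 CPM in the tumours, so their distances rest in part on very low values as well. For single members, the nearest gene outside the list over the 9 libraries was Ncan for Gfap (0.86), Samd8 for Gja1 (0.25), Sgpp2 for Slc1a3 (0.36), Rab6b for Slc1a2 (0.29), Ntrk2 for S100b (0.26) and Fxyd1 for Aldh1l1 (0.25). It was Ccdc190 for Aqp4 (0.51, further off than the member Aldh1l1 at 0.44), Clec2l for Aldoc (0.51) and Lcat for Fabp7 (0.36). Ccdc190 and Clec2l likewise reached 5 CPM through control (means of 40.6 and 115.5 CPM), with means of at most 4.7 CPM in either tumour group.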

How the data were processed

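Whole-number counts per gene symbol for 9 libraries were used as deposited. Per the submitters' processing notes the authors used bcl2fastq, TopHat and edgeR with the mm10 build; the counter, annotation, strand setting and tool versions were not given in the sources used here. Slc1a2 and Aldh1l1 share exonic bases with antisense genes, and Aldh1l1 also with a lincRNA on its own strand. With the strand setting unknown, their counts may hold reads of those genes.

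Genes were kept with filterByExpr (minimum count 10, minimum total 15; 15171 genes). TMM-scaled counts of all 9 libraries were fitted with 1 mean per group and 6 residual degrees of freedom (edgeR 4.0.16, R 4.3.3, quasi-likelihood test). P-values were adjusted by Benjamini-Hochberg across the whole table (threshold 0.05), and every adjusted p-value given is from edgeR unless another tool is named. The SE is the size of the log2 fold change over the root of F. CPM per kilobase used the merged exons of GENCODE vM21 (mm10). Plots were made in Python 3.11.15 with matplotlib 3.10.9.

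Samples were grouped by their source name and genotype, and replicates numbered in the order of the samples. The members and lists were chosen with earlier results of these data known. From each further list the text names, per comparison, up to 2 called genes of smallest p in the main direction and 1 in the other; paralogue lists may be named in full. A few genes that the naming rules pick are not reported here. The alternatives were library size without further scaling, RLE scaling, no filter, a stricter one (1 CPM in every library of some group), a fit of only the groups compared, DESeq2 1.42.0, limma-voom (limma 3.58.1) and each library left out.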

Additional observations from a re-analysis of the deposited data

Results flagged for a closer look

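Results that differed between the tumour types under the direct test of MycT58A against EV tumours (edgeR, adjusted over all genes tested) are listed here. Among the members these are Slc1a3, with a log2 fold change of 2.19 (adjusted p = 0.0313), and Gja1, with -1.49 (adjusted p = 0.0208). For each, all 3 MycT58A libraries lay on the same side of all 3 EV libraries. Over all genes tested, 18.2% lay wholly higher and 13.6% wholly lower in MycT58A than in EV tumours, so this separation is common. Both member calls were lost when only the tumour groups were fitted.

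Among the named genes of other lists, higher values in MycT58A tumours were seen for Dio2 (log2 fold change 3.62), Aqp11 (1.93) and Cd44 (1.0). Lower values were seen for Aqp1 (-6.01), Gja5 (-4.93), Htra1 (-3.61), Hspb1 (-3.12), Cd68 (-1.66) and Pdgfra (-1.65). The S100 genes S100a4 (-2.65), S100a11 (-1.49), S100a13 (-1.49), S100a1 (-1.45), S100a10 (-1.23) and S100a6 (-1.17) were lower as well. Leaving out 1 library moved 4 of these values by over 1.5 times on the linear scale: Hspb1 was -2.07 without the library labelled EV replicate 3, Aqp1 was -5.22 without EV replicate 1, and without EV replicate 2 Gja5 was -4.1 and Dio2 was 4.44. Each of these calls was lost in at least 1 of 16 alternatives, and some in most. Cd44 passed in only 3 of the 16, Pdgfra in 7, S100a4 and S100a6 in 8, and Aqp11, Dio2 and Hspb1 in 9. Aqp1 passed in 11, Cd68, Gja5, S100a1, S100a10, S100a11 and S100a13 in 12, and Htra1 in 15. Groups of 3 libraries are too small for a test of single outlying libraries.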

How the results depend on the processing

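Of 480 values of single members under 16 alternatives, 449 kept their direction and their side of the threshold, 22 lost the call, 2 gained it and 7 changed sign. The 7 were all of comparisons that were not called: Gfap in EV tumours against control was 0.06 on the log2 scale without control replicate 3 and down to -0.71 without other libraries. Between MycT58A and EV tumours Slc1a2 was 0.08 in limma-voom, 0.78 without EV replicate 2, 0.21 without MycT58A replicate 2 and down to -0.46 without others. S100b was 0.74 without EV replicate 2, 0.37 without MycT58A replicate 2 and down to -1.02, and Fabp7 was 0.23 without MycT58A replicate 2, down to -0.75 without others and -1.11 in limma-voom. The cause was not tested. Leaving out 1 library at a time, 8 to 9 members were called in MycT58A tumours against control, 6 to 9 in EV tumours against control and 0 to 2 between the tumour types.

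Between the tumour types the count of members called was 2 in the fit of all 9 libraries and 0 when only those groups were fitted (edgeR; 2 at an unadjusted p under 0.05; DESeq2 gave 3 and limma-voom 2). Over all genes the same comparison gave 1259 calls with all libraries, 34 with only the tumour groups, 3446 in DESeq2 and 1513 in limma-voom. It gave 861 with no filter, 311 to 363 without 1 control, 36 to 70 without 1 MycT58A library and 1924 to 3977 without 1 EV library. Per kilobase of the longest transcript, 6 of 10 control levels moved by more than their SD. No paired analysis was possible because the labels give the groups no shared replicate numbers. Depth limits the lowest values: Gjb6 and Aldh1l1 in MycT58A replicate 2 rest on 2 and 8 counts.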
